A study of Mus musculus with 33 samples.

Results

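The 8 genes described here, Hopx, Nes, Fabp7, Thrsp, Riiad1, Lpar1, Vnn1 and Rhcg, are in use as markers of adult neural stem cells of the hippocampus. They were found by symbol in the deposited tables, where they are 8 of 18854 rows. Single cells of the mouse hippocampus were profiled by SORT-seq, a plate-based method that counts the 3′ ends of transcripts with a molecular barcode (UMI) and a cell barcode. One library came from C57BL/6 mice older than 12 months, one held GFP-positive hippocampal cells of NestinGFP mice, and 31 niche libraries came from 5 numbered experiments on C57BL/6 mice. All are labelled wild-type, and the common protocol depleted neurons and sorted live cells negative for GluR1 and Cd24 antibodies. Neither the age of the niche mice nor the number of animals is given in the sources used here. In a Nestin-GFP mouse the reporter follows Nes regulatory sequence and not the protein itself. Since nothing says that experiments used separate animals, p-values cannot be read as measuring spread between animals. They rest on how class differences vary between experiments, which may be technical, and on spread shared across genes.

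In the adult dentate gyrus, radial glia-like stem cells share much of their expression with astrocytes. They give rise to proliferating progenitors, neuroblasts and granule neurons. Hopx encodes a homeodomain-only protein that does not bind DNA and Nes the intermediate filament nestin. Fabp7 encodes the brain fatty acid binding protein of radial glia, and Thrsp a thyroid hormone-responsive regulator of lipogenesis. Lpar1 is a receptor for lysophosphatidic acid, Vnn1 a pantetheinase and Rhcg an ammonium transporter. Riiad1 is named for the domain it shares with the regulatory subunit of type II protein kinase A. On mm10 (GENCODE M21) the genes lie at chr5:77086988-77115121 (Hopx), chr3:87971078-87980451 (Nes), chr10:57784881-57788450 (Fabp7), chr7:97412938-97417730 (Thrsp), chr3:94464983-94480341 (Riiad1), chr4:58435255-58553898 (Lpar1), chr10:23894688-23905343 (Vnn1) and chr7:79593363-79617657 (Rhcg). Exons of Hopx overlap the antisense gene Hopxos, whose reads cannot be told apart from those of Hopx without a stated strand of counting.

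Wells with at least 1000 transcripts were kept, which gave 138 old, 315 Nestin-GFP and 1285 niche cells. Libraries held 4 to 315 such cells and 9555 to 1965606 transcripts. Classes were drawn and named from other genes, with all 8 left out, and levels were read from the UMIs of each cell that took no part in clustering. The class named neural stem cell-like held 31 niche cells (3, 22 and 6 cells in experiments 1, 2 and 5, none in experiments 3 and 4), or 2.41% of cells (exact binomial 95% interval 1.65 to 3.41%). Its summed level of 15 stem cell markers was 4932 and 3650 CPM (counts scaled to a common total, the usual unit of that name) in experiments 2 and 5, against 980.9 to 1649 CPM in the astrocyte-like cells of 4 experiments. Because these 15 genes served to name the class, this order was in part set by the naming. The list did not single out the class: microglia-like cells read 5804 to 6564 CPM of it in 4 experiments. Of its 15 markers, 15 and 10 were detected in stem cell-like cells of experiments 2 and 5, against 9 to 12 in astrocyte-like cells and 15 in neuroblast-like cells of experiment 2. Stem cell-like cells had 15950 and 23960 CPM of 14 astrocyte markers, also a naming list, against 32620 to 46040 CPM in astrocyte-like cells. Depth differed with the class. The median was 7429 and 4054 transcripts per stem cell-like cell in experiments 2 and 5, against 2036 and 1899 transcripts per astrocyte-like cell. Per the labels, the reads of experiment 2 are a resequencing.

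Hopx had the highest mean in stem cell-like cells of any class, at 3954 CPM in experiment 2 and 5139 CPM in experiment 5. Astrocyte-like cells came next, with 887, 1704, 1069 and 2730 CPM in experiments 1, 2, 4 and 5. The 2 classes did not overlap over experiments. Proliferating progenitor-like cells had 118, 84.97 and 169 CPM in experiments 1, 2 and 4, and neuroblast-like cells 0 to 85.1 CPM in 4 experiments. Outside the neural lineage, Hopx read 0 to 269 CPM over 4 experiments in the blood and lymphoid-like class, whose larger cluster (54 cells) was led by Ccl5 and Gzma. That range overlapped the one in progenitor-like cells. Microglia-like cells, which should lack the gene, had 14.7 to 53.7 CPM of it.

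Fabp7 was at 1353 and 1898 CPM in the stem cell-like cells of experiments 2 and 5. Astrocyte-like cells had 388 to 505 CPM in 4 experiments, and oligodendrocyte precursor-like cells 496 to 789 CPM in 5 experiments. Fabp7 was therefore shared by these 3 classes, among others, with stem cell-like cells above the other classes named here in experiments 2 and 5. Progenitor-like cells spread widely, with 835, 129 and 353 CPM in experiments 1, 2 and 4, and overlapped astrocyte-like and precursor-like cells. Neuroblast-like cells had 0 to 127 CPM, which overlapped the 6.71 to 58.6 CPM of microglia-like cells.

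Thrsp was at 886 and 1545 CPM in the stem cell-like cells of experiments 2 and 5. Astrocyte-like cells had 910, 406, 434 and 606 CPM in experiments 1, 2, 4 and 5. The lower stem cell-like value lay below the highest astrocyte-like one, so the classes overlapped across experiments, though not within either shared experiment. Progenitor-like cells had 902, 303 and 178 CPM in experiments 1, 2 and 4. The value of experiment 1 lay within the astrocyte-like range and the other two below it. Neuroblast-like cells (0 to 184 CPM) overlapped microglia-like cells (43.97 to 101 CPM).

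**Figure D1:**
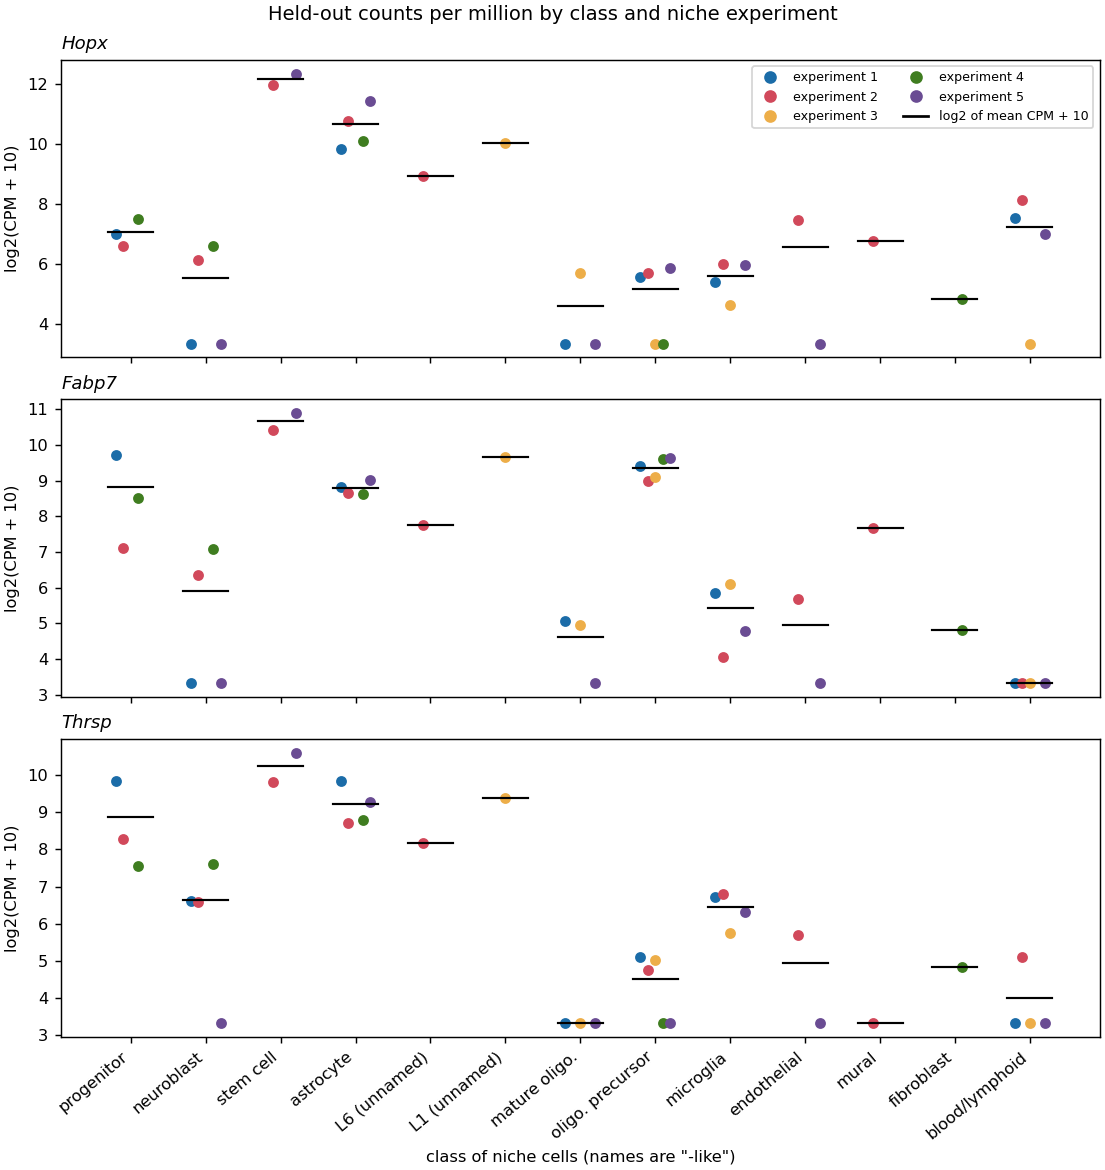
Level of Hopx, Fabp7 and Thrsp as log2(CPM + 10) on the y axis, by class of niche cells on the x axis. Each point is the summed held-out counts of one experiment with at least 5 cells, and each black line is the log2 of the mean CPM plus 10; in all 3 panels the stem cell-like class has the highest line.

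For these 3 genes the 250 bases before each annotated start are given, because they are the members that were high together in stem cell-like cells. They are RefSeq windows on GRCm38.p6, placed by RefSeq starts. The Thrsp and Fabp7 windows run past the GENCODE starts into the GENCODE spans given above. Capitals mark the letters TGGGAA (the core bound by the Notch factor RBPJ), AACAAT (a SOX sequence) and TTGGC (part of the site of nuclear factor I), read on both strands, and no base fell in more than one match.
Fabp7, chr10:57784673-57784922, plus strand: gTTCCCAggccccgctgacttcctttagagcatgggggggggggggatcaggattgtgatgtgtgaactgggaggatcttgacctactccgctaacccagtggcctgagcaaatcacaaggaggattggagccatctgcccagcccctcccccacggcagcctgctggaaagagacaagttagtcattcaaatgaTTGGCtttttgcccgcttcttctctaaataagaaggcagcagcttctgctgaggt
Hopx, inner start, chr5:77095268-77095517, minus strand: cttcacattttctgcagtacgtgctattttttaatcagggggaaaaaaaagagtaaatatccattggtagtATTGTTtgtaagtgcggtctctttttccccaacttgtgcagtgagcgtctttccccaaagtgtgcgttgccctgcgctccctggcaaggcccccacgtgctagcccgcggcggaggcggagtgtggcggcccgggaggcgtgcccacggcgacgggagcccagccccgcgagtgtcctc
Hopx, outer start, chr5:77115124-77115373, minus strand: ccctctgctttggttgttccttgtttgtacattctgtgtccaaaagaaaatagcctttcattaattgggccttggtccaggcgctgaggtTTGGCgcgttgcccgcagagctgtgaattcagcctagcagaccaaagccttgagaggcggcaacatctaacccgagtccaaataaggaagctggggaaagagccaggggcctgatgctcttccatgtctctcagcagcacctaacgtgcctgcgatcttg
Thrsp, chr7:97417551-97417800, minus strand: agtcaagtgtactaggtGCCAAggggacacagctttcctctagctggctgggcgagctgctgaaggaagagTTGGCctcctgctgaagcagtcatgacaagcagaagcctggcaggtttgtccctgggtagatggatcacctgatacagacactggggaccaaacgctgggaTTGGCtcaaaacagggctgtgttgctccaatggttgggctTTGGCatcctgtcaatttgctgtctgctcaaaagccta
Thrsp held 4 matches to TTGGC, and Fabp7 and the outer Hopx window 1 each. The Thrsp matches 179, 78 and 38 bases before the RefSeq start lie inside the GENCODE span of the gene. Among all 32851 windows of this length, 41.5% held TTGGC, 21.6% TGGGAA and 9.42% AACAAT, so a match alone sets none of the 3 apart. No motif was present in all 4 windows.

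The first test asked which of the genes separate stem cell-like from astrocyte-like cells within an experiment, in experiments 2 and 5 (28 cells against 90). Of 1297 genes tested, 11.9% passed an adjusted p of 0.05 (154 genes; 45, or 3.47%, higher and 109, or 8.4%, lower in stem cell-like cells). Hopx, Fabp7 and Thrsp passed the filter on low counts, and each was higher in stem cell-like cells in 2 of 2 experiments. Fabp7 was higher by 1.79 ± 0.37 (log2 fold change ± SE; adjusted p = 4.59e-05, edgeR quasi-likelihood test with Benjamini-Hochberg adjustment, as throughout). Hopx was higher by 1.02 ± 0.27 (edgeR adjusted p = 0.00249) and Thrsp by 1.18 ± 0.38 (edgeR adjusted p = 0.024). In experiment 2 alone the log2 differences were 1.75 for Fabp7, 1.21 for Hopx and 1.09 for Thrsp, and in experiment 5 alone 1.68, 0.77 and 1.15 in the same order. The other 5 genes were too rare in both classes to be tested. Stem cell-like cells were the deeper ones in both experiments, and the part of depth in these differences was not tested.

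The calls and the sizes both varied with the fit. Over the alternatives the log2 difference was 1.40 to 1.90 for Fabp7, 0.61 to 1.17 for Hopx and 0.55 to 1.25 for Thrsp, the lowest Thrsp value coming from the second division of UMIs. None of the 3 passed with DESeq2 (adjusted p of 0.0877 for Fabp7, 0.196 for Hopx and 0.506 for Thrsp), without the experiment as a block (edgeR adjusted p of 0.0727, 0.227 and 0.267), or with every gene tested (edgeR adjusted p of 0.501, 0.994 and 0.994). Over the 13 alternatives with a test, Fabp7 passed in 10, Hopx in 9 and Thrsp in 3, and all 3 were higher in stem cell-like cells in every one. Another random division of the UMIs, the third one tried and chosen after the data were seen, gave a stem cell-like class of 85 niche cells in place of 31, and Fabp7 alone passed.

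**Figure D2:**
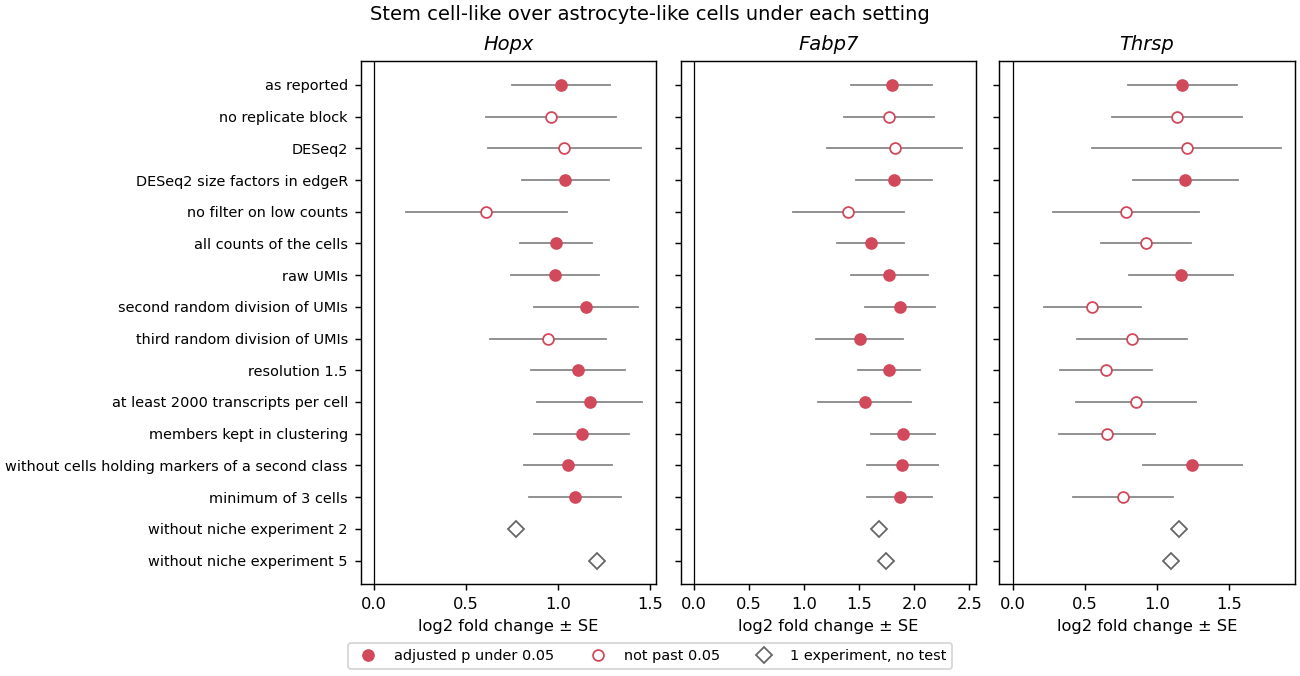
Log2 fold change of stem cell-like over astrocyte-like cells on the x axis, for each setting on the y axis, with lines for ± 1 SE. Filled points passed an adjusted p of 0.05, open ones did not, and diamonds are single experiments without a test. All points lie right of 0, while Thrsp passes the threshold as reported and in 3 of 13 tested alternatives.

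Progenitor and neuroblast-like cells were next set against stem cell-like cells in the same 2 experiments (93 cells against 28). The later group was mostly neuroblast-like (73 of 84 cells in experiment 2). It leaves out an unnamed cluster led by Ccnd2, Draxin and Eomes, described below. Hopx was at 62.3 and 204 CPM in progenitor and neuroblast-like cells of experiments 2 and 5, against 3954 and 5139 CPM in stem cell-like cells. Fabp7 was at 79.9 and 204 CPM, against 1353 and 1898 CPM. Thrsp was at 116 and 204 CPM, against 886 and 1545 CPM. None of the ranges overlapped, and 18.7% of the 1157 genes tested passed (5.27% higher and 13.4% lower). Hopx, Fabp7 and Thrsp were all lower and passed. Each passed the filter on low counts through the stem cell-like class, so they are given as a description, with no fold. Hopx and Fabp7 passed in all 13 alternatives and Thrsp in 11; Thrsp was lost at Leiden resolution 1.5 and with the 8 genes kept in clustering (edgeR adjusted p up to 0.293). The split of all calls, 61 higher and 155 lower, was 151 and 239 with DESeq2's size factors. Only 9 progenitor and neuroblast-like cells, with 14728 counts of all genes, stood behind experiment 5. Outside the test, the 12 such cells of experiment 1 had 70.7 CPM of Hopx, 501 CPM of Fabp7 and 577 CPM of Thrsp. The 83 of experiment 4 had 98.2, 162 and 183 CPM in the same order.

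Stem cell-like cells were then set against oligodendrocyte precursor-like cells, which share Fabp7 but hold little Hopx or Thrsp. Hopx was at 3954 and 5139 CPM in stem cell-like cells of experiments 2 and 5, against 41.7 and 47.8 CPM in precursor-like cells. Thrsp was at 886 and 1545 CPM, against 17.2 and 0 CPM. For Fabp7 the gap was narrower, 1353 and 1898 CPM against 496 and 789 CPM. Of 1517 genes tested 27.9% passed, and Fabp7 was higher by 1.41 ± 0.31 (edgeR adjusted p = 6.68e-05). Hopx and Thrsp also passed, but with 17 and 2 counts of Hopx and 7 and 0 counts of Thrsp in precursor-like cells they are given as a description, with no fold. Their low level there was known when the comparison was chosen. The Fabp7 call was lost with DESeq2 and with every gene tested (adjusted p up to 0.265). Both comparisons share their stem cell-like cells with the first one.

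Lpar1 had its highest level outside the neurogenic lineage, in mature oligodendrocyte-like cells, and is described there beside Fabp7. Mature oligodendrocyte-like cells had 592, 568 and 674 CPM in experiments 1, 3 and 5, against 3.07, 0 and 23.9 CPM in oligodendrocyte precursor-like cells. Fabp7 ran the other way, with 23.5, 20.7 and 0 CPM in mature cells against 665, 536 and 789 CPM in precursors. The groups did not overlap for either gene. Here 59.5% of the 964 genes tested passed, so passing, as both genes did, says little by itself. Each passed the filter on low counts through the class where it is high. Lpar1 had 1, 0 and 1 counts in precursor-like cells and Fabp7 3, 1 and 0 counts in mature cells, so no fold is given. The other 6 genes did not reach the filter. Fibroblast-like cells, found in experiment 4, had 407 CPM of Lpar1 in 12 cells.

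The rarer genes were counted over all UMIs of a class in the niche libraries, on the scale of CPM but from whole UMIs (written UPM), with exact Poisson 95% intervals that cover counting error only. Riiad1 had its highest level in stem cell-like cells, at 91.3 UPM (19 UMIs in 12 of 31 cells; 54.97 to 143), against 6.08 UPM in astrocyte-like cells (4 UMIs; 1.66 to 15.6) and 1.97 UPM in neuroblast-like cells (3 UMIs). The interval lay above those of both. Exons of Riiad1 (chr3:94464983-94480341, mm10) overlap exons of Celf3 on the other strand, and without a stated strand of counting their reads cannot be told apart. Celf3 itself was highest in neuroblast-like cells, at 139 UPM (212 UMIs), where Riiad1 had 3 UMIs. Between the other classes named here, Celf3 read higher in stem cell-like cells (38.5 UPM, 8 UMIs) than in astrocyte-like cells (3.04 UPM, 2 UMIs), as Riiad1 did. The part of Celf3 reads in the Riiad1 counts was not tested.

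Vnn1 gave 10 UMIs in all niche cells, of which 6 were in 6 stem cell-like cells (28.8 UPM; 10.6 to 62.8), 2 in an unnamed cluster, 1 in astrocyte-like cells (1.52 UPM; 0.0385 to 8.47) and 1 in oligodendrocyte precursor-like cells. Rhcg gave 22 UMIs, of which 7 were in 5 stem cell-like cells (33.6 UPM; 13.5 to 69.3), 1 in astrocyte-like cells (1.52 UPM) and 7 in oligodendrocyte precursor-like cells (4.09 UPM; 1.65 to 8.43). For both genes the stem cell-like interval lay above the astrocyte-like one. Stem cell-like cells held 6 of the 10 Vnn1 UMIs, 40.4% of Riiad1, 31.8% of Rhcg and 31.3% of Hopx UMIs, while making up 2.90% of all UMIs. The share was lower for Thrsp (14.8%), Fabp7 (12.3%) and Lpar1 (7.02%), and for Nes it is given below.

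Lpar1 was also present in stem cell-like cells, at 115 UPM (24 UMIs in 11 of 31 cells; 73.9 to 172), against 7.60 UPM in astrocyte-like cells (5 UMIs; 2.47 to 17.7). It stayed below the 599 UPM of mature oligodendrocyte-like cells (234 UMIs in 56 of 66 cells; 525 to 681). Riiad1 and Lpar1 were not found in the 6 stem cell-like cells of experiment 5, whose 28327 UMIs allow up to 106 UPM. Experiment 2 supplied 18 of the 19 Riiad1 and 21 of the 24 Lpar1 UMIs.

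Nes, the gene behind the reporter line, did not have its highest level in the stem cell-like class. It read 24.0 UPM there (5 UMIs in 4 of 31 cells; 7.80 to 56.1), against 4.56 UPM in astrocyte-like cells (3 UMIs; 0.941 to 13.3), and these intervals overlapped. Proliferating progenitor-like cells had 50.4 UPM (17 UMIs; 29.4 to 80.7), which overlapped the stem cell-like interval. The highest levels were vascular, with 263 UPM in mural-like cells (9 UMIs in 4 of 7 cells; 120 to 499) and 167 UPM in endothelial-like cells (16 UMIs in 10 of 27 cells; 95.2 to 270). Stem cell-like cells held 4.85% of Nes UMIs.

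**Figure D3:**
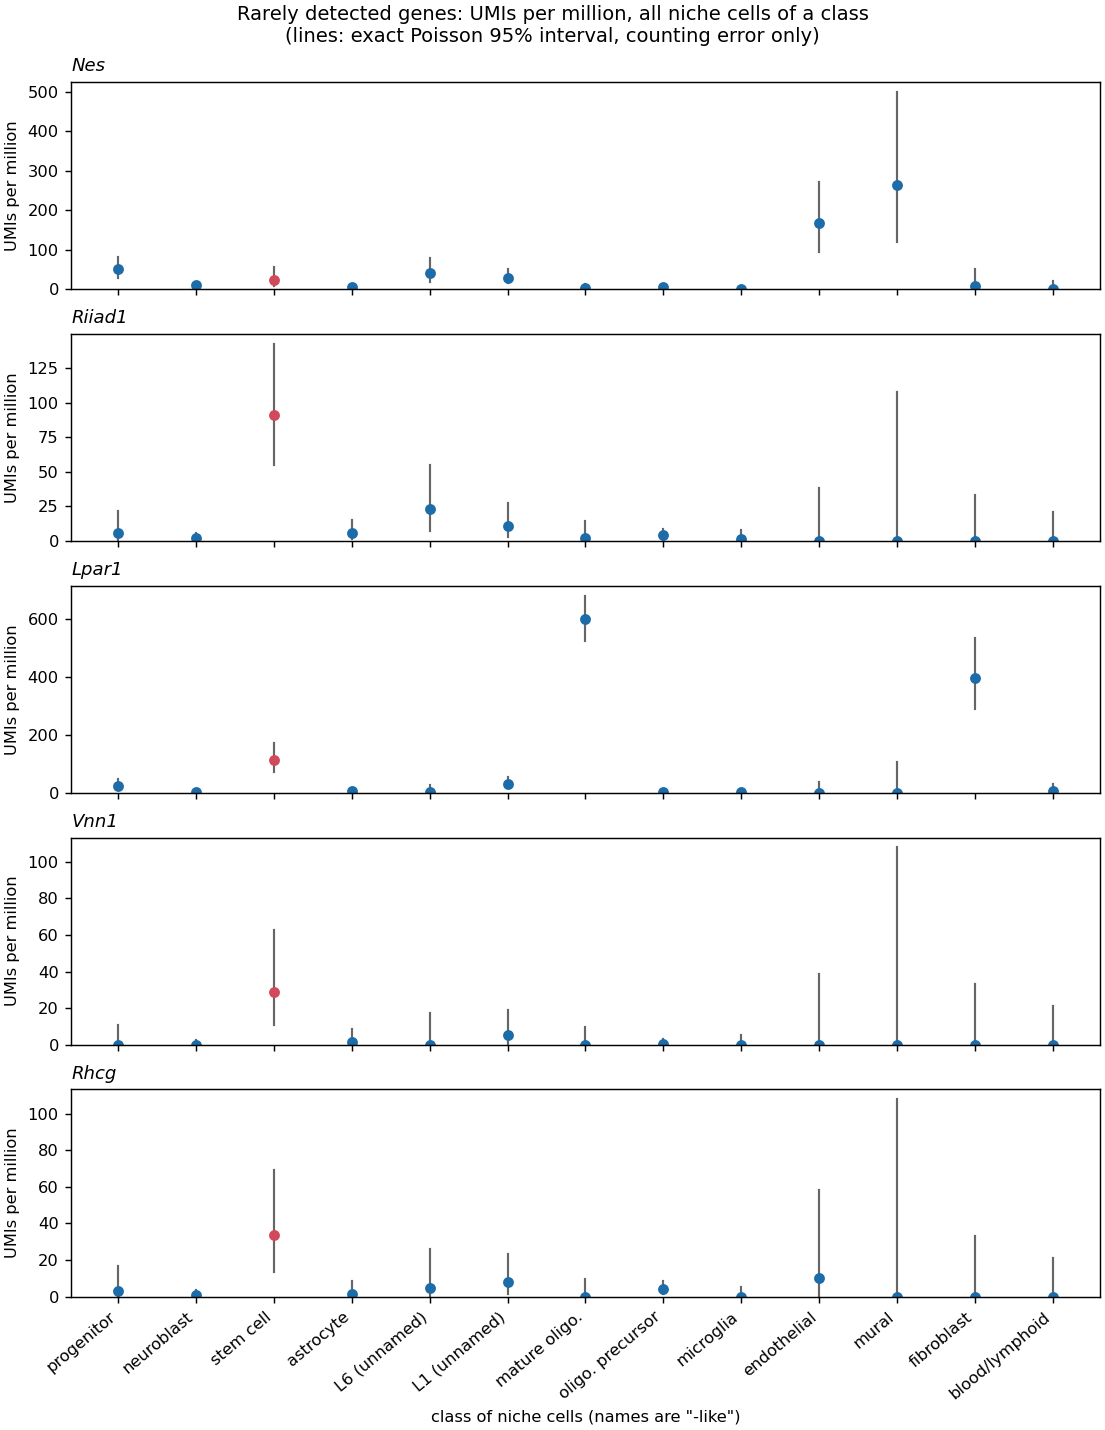
UPM, whole UMIs scaled like CPM, of the 5 rarer genes by class of niche cells, with exact Poisson 95% intervals. Riiad1, Vnn1 and Rhcg are highest in stem cell-like cells, Lpar1 in mature oligodendrocyte-like and Nes in mural-like cells.

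Detection per cell was compared after thinning each cell to 2000 UMIs, since classes differed in depth; shallower cells were left out (1 stem cell-like, 95 astrocyte-like and 84 microglia-like cells). At least 3 of the 8 genes were detected in 28 of 30 stem cell-like cells (93.3%), against 22 of 93 astrocyte-like cells (23.7%), 4 of 36 progenitor-like, 1 of 142 neuroblast-like and 4 of 247 oligodendrocyte precursor-like cells. None of 118 microglia-like cells reached 3. Of 2 unnamed clusters described below, the one with astrocyte markers had 20 of 56 such cells (35.7%), more than the astrocyte-like class. The one led by Ccnd2 had 5 of 22 (22.7%). By experiment the stem cell-like counts were 2 of 2, 22 of 22 and 4 of 6 cells in experiments 1, 2 and 5, against 8 of 33, 5 of 24 and 5 of 19 astrocyte-like cells, so the classes differed the same way in each. Without thinning, all 31 stem cell-like cells had at least 3 of the genes, and all 4 niche cells with 6 of them were stem cell-like.

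Hopx was found in 30 of 30 thinned stem cell-like cells, against 79.6% of astrocyte-like and 7.63% of microglia-like cells. Fabp7 was found in 93.3% of stem cell-like cells, against 54.8% of astrocyte-like, 63.97% of oligodendrocyte precursor-like and 6.78% of microglia-like cells. Thrsp was found in 76.7% of stem cell-like cells, against 49.5% of astrocyte-like and 13.6% of microglia-like cells. The 19.7% of neuroblast-like cells with Thrsp (exact binomial 95% interval 13.5 to 27.2%) lay inside the interval of microglia-like cells (7.95 to 21.1%). It lay above that of oligodendrocyte precursor-like cells (4.45%; 2.24 to 7.83%), so the reading depends on the class set beside it. Riiad1 and Lpar1 were each found in 6 of 30 stem cell-like cells, Rhcg in 3, Nes in 1 and Vnn1 in none.

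**Figure D4:**
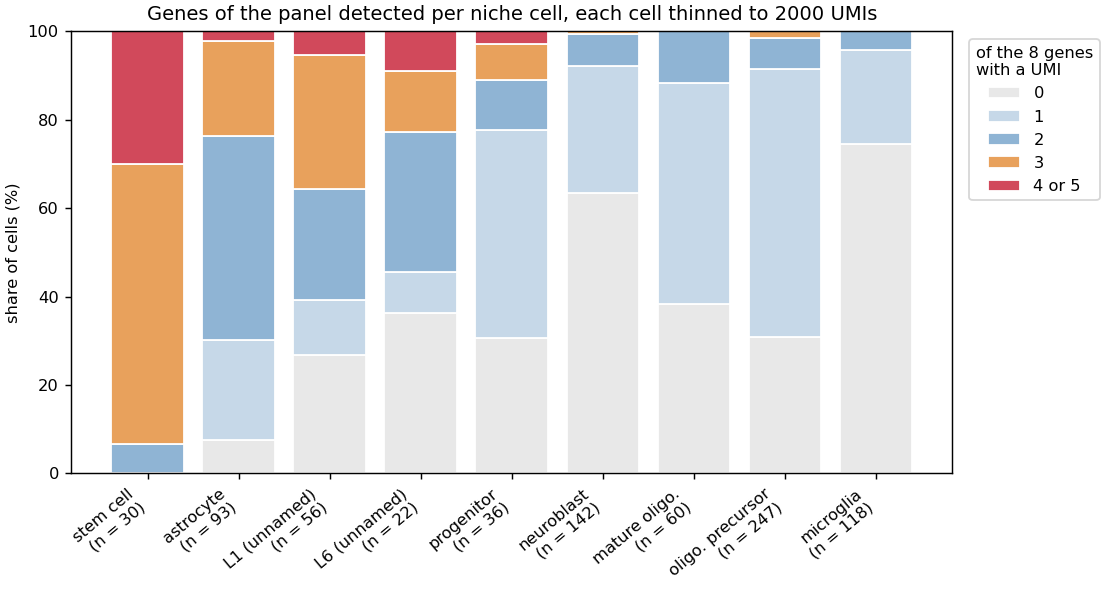
Share of niche cells by the number of the 8 genes detected after thinning to 2000 UMIs, for each class. Most stem cell-like cells hold 3 or 4 genes, while most neuroblast-like and microglia-like cells hold none.

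A cluster left unnamed, of 25 niche cells led by Ccnd2, Draxin and Eomes, had 473 CPM of Hopx, 206 CPM of Fabp7 and 278 CPM of Thrsp in experiment 2, all below the stem cell-like values of that experiment. Another unnamed cluster of 70 niche cells, found in experiment 3, carried astrocyte markers with others and had 1023 CPM of Hopx, 798 CPM of Fabp7 and 662 CPM of Thrsp. Counting it as astrocyte-like gave means of 1486 ± 762, 510 ± 182 and 603 ± 203 CPM for these genes (SD, n = 5 experiments), against 1597 ± 832, 432 ± 54.7 and 589 ± 232 CPM without it (SD, n = 4).

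The old and Nestin-GFP libraries are single libraries, so their values have no replicate check. No stem cell-like cell was named among 138 old cells, which allows a share of up to 2.17% by the limit of 3 counts (exact binomial upper bound 2.64%), and 1 was named among 315 Nestin-GFP cells (0.318%). Astrocyte-like cells had 1009 CPM of Hopx, 212 CPM of Fabp7 and 696 CPM of Thrsp in the Nestin-GFP library. Lpar1 in mature oligodendrocyte-like cells read 497 CPM in the old and 365 CPM in the Nestin-GFP library. Nes was found in 20 of 315 Nestin-GFP cells (29 UMIs) and the eGFP transcript in 153 (406 UMIs), with 12 cells holding both. The eGFP transcript was found in 58 of 70 oligodendrocyte precursor-like, 47 of 91 mature oligodendrocyte-like and 29 of 93 astrocyte-like cells, and Nes in 6, 0 and 2 of the same cells. Endothelial-like cells ran the other way, with the eGFP transcript in 3 of 14 and Nes in 8.

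Related genes were described from lists tied to each marker's role. Of 22 other radial glia genes, 18 were tested in stem cell-like against astrocyte-like cells and 4 were higher (Tnc, Notch2, Cd9 and Ptprz1), with a median log2 difference of 0.58 against 0.01 over all genes tested, of which 3.47% were higher and 8.4% lower. Ptprz1, a receptor phosphatase of glial progenitors, was at 2089 and 3791 CPM in stem cell-like cells of experiments 2 and 5, against 1110 and 875 CPM in astrocyte-like cells (log2 difference 1.40 ± 0.30, edgeR adjusted p = 0.000115). Of 18 genes of fatty acid binding and lipogenesis, the setting of Fabp7 and Thrsp, 10 were tested and 4 fell in stem cell-like cells (Acsl3, Acsl6, Elovl5 and Mid1ip1; median -0.79). Of 8 genes of ammonium and glutamine handling, 3 were tested and 2 fell (Glul and Slc38a3). Slc38a3, at 70.8 and 70.2 CPM in stem cell-like cells, passed the filter on low counts through the astrocyte-like class, so this count is a description too. Glul, glutamine synthetase, was at 720 and 1123 CPM in stem cell-like cells, against 4322 and 3920 CPM in astrocyte-like cells (log2 difference -2.33 ± 0.30, edgeR adjusted p = 2.07e-11). None passed among the 2 intermediate filament genes tested (median 0.16), 2 of lysophosphatidic acid signalling (median -0.30), 4 of thyroid hormone handling (median -0.78) and 1 of type II protein kinase A, and no gene of coenzyme A synthesis was tested. The radial glia and lipid calls were all lost with DESeq2, without the block, with every gene tested and in the third division of UMIs, while the Glul call held in all 4.

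Along the lineage, 8 of 14 tested radial glia genes fell in progenitor and neuroblast-like cells and 2 rose, with a median of -2.72 against 0.10 over all genes tested, of which 13.4% were lower and 5.27% higher. Id4, an inhibitor of basic helix-loop-helix factors, had 17.7 and 136 CPM in progenitor and neuroblast-like cells of experiments 2 and 5. Stem cell-like cells had 1192 and 913 CPM of it. Id4, Hes5 and Tnc passed the filter on low counts through the stem cell-like class, so no fold is given for them. The count of genes that fell is therefore a description. So is the count of those that rose, since Nfix passed the filter through the progenitor and neuroblast-like class. Nfib, a nuclear factor I gene, was at 5129 and 3191 CPM in progenitor and neuroblast-like cells, against 1039 and 702 CPM in stem cell-like cells, and rose by 2.12 ± 0.45 (edgeR adjusted p = 0.023). Of 2 intermediate filament genes tested, Gfap passed and Vim did not (log2 difference -1.23 ± 0.56, edgeR adjusted p = 0.171). Gfap was at 2.95 and 0 CPM in progenitor and neuroblast-like cells, against 472 and 211 CPM in stem cell-like cells, and did not enter the test in 4 of 13 alternatives. Of the lipid genes, 4 of 9 tested fell (Dbi, Acsl3, Acsl6 and Scd2; median -1.73), as did both ammonium and glutamine genes tested (Glud1 and Glul), Ppap2b, the 1 tested gene of lysophosphatidic acid signalling, and Slco1c1, 1 of 2 of thyroid hormone handling. Like Gfap, the genes Acsl3, Acsl6, Glud1, Glul, Ppap2b and Slco1c1 passed the filter on low counts through the stem cell-like class. These calls and counts are therefore a description too. Neither tested gene of type II protein kinase A passed.

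Across 38 sums of a class in an experiment, the genes outside the panel closest to Hopx by Pearson's r over 10627 genes were Cbs (0.85), 5930403L14Rik (0.81) and Gldc (0.80), and to Thrsp they were Cbs (0.86), Gldc (0.82) and Kcnn2 (0.82). Fabp7 was closest to Caskin1 (0.89), Col9a3 (0.89) and Ntrk2 (0.88), Nes to Gjc1 (0.88), Emcn (0.85) and N4bp3 (0.83), Riiad1 to Mt3 (0.81), Cacng5 (0.67) and Wnt8b (0.66), which is itself a naming marker, and Lpar1 to Il33 (0.79), Cpm (0.78) and Smco3 (0.78). Among the markers themselves, Hopx and Thrsp had r of 0.71, Riiad1 and Vnn1 0.70, Fabp7 and Thrsp 0.59, and Nes -0.06 to 0.15 with the other 7. The r of Vnn1 rests on very few counts, since the gene gave 10 UMIs in all niche cells. In the sums used, Vnn1 was above 0 only in stem cell-like and astrocyte-like cells. The sums share libraries and differ in depth, so these are descriptions.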

How the data were processed

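The deposited tables hold estimated counts per gene and cell, made by the authors from UMI counts with a correction for saturation; reads were aligned to mm10 with BWA 0.6.2-r126, per the submitters' processing notes. The counting tool and its strand setting are not given in those notes. Cells with at least 1000 transcripts were kept, their UMIs were divided at random into 2 equal parts, and one was clustered (scanpy 1.11.5, Leiden resolution 1) without the 8 genes. Classes were named from fixed marker lists. The other was summed per class and experiment (at least 5 cells), rounded to whole numbers and tested with edgeR 4.0.16 (quasi-likelihood, TMM, filterByExpr, experiment as block, Benjamini-Hochberg threshold 0.05); DESeq2 1.42.0 was an alternative. Printed CPM of the 8 genes are from unrounded sums. The SE given with an edgeR fold is the absolute log2 fold change divided by the square root of the quasi-likelihood F. It is thus derived from the test statistic. The block follows the labels, since classes come from the same libraries. Comparisons with stem cell-like cells rest on 2 experiments.

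The members and lists were chosen with earlier results of these data known. Naming thresholds and the second round of clustering were set after the files were seen. The naming rule was revised once more after per-cluster levels of the 8 genes had been looked at, which left 2 clusters unnamed. Comparisons were run after that. No doublet caller was run, and no 2 cells were identical. Genes named beside the 8 were those of the lists past the threshold, up to 4 per direction, and the 3 closest by correlation for genes with at least 30 UMIs.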

Additional observations from a re-analysis of the deposited data

How the results depend on the processing

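Hopx, Fabp7, Thrsp and Lpar1 kept their direction in every setting that gave a value, in the comparisons where each passed the filter on low counts; the other 4 genes passed it in none. For stem cell-like over astrocyte-like cells, 3 of the 8 passed, against 0 without the replicate block, 0 with DESeq2, 0 with no filter on low counts and 1 in the third division of UMIs. All genes past the threshold there numbered 154, against 17 without the replicate block, 11 with DESeq2, 41 with no filter, 36 in the third division and 73 at 2000 transcripts per cell. For progenitor and neuroblast-like over stem cell-like cells the count was 216, against 135 with DESeq2, 390 with DESeq2's size factors, 509 with all counts and 363 with raw UMIs. For stem cell-like over oligodendrocyte precursor-like cells it was 423, against 277 without the replicate block, 155 with DESeq2 and 679 with all counts. For mature over precursor oligodendrocyte-like cells it was 574, against 1075 with no filter, 1101 with all counts, and 399 to 909 leaving out 1 experiment (399 without experiment 1, 909 without experiment 3, 891 without experiment 5). Stem cell-like cells numbered 31, against 85 in the third division, 48 at resolution 1.5 and 71 at 2000 transcripts; at resolution 0.6 no such cluster was named. The share of them with at least 3 genes was 100% unthinned, against 93.3%. The cause of these differences was not tested. Raw UMIs and the third division were chosen after the data were seen. With 31 cells, the rarer genes rest on 5 to 24 UMIs.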
